A study of Mus musculus with 15 samples.

Results

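The miRNAs of the mouse kidney at 12 months of age were compared with the average of their levels at 3 and 24 months, to find those with a peak or a dip in midlife. All 15 libraries of the series entered the comparison, 5 from 12-month-old mice, 5 from 3-month-old mice and 5 from 24-month-old mice, and every distinct sequence that passed the filter on low counts was tested in 1 fit. The samples were kidneys of male C57BL/6 mice kept on standard chow, with no treatment named in the labels. Each library carries a number of its own and is called a mouse by that number here, but the labels do not state that each came from a separate animal, so p-values measure the spread between these samples, which may in part be technical. The labels name neither the region of the kidney nor a date of collection or sequencing, so age and any such batch cannot be told apart, and whole-organ RNA cannot separate fewer cells of a type from less of a miRNA per cell. The quantity given throughout is the 12-month deviation, the log2 level at 12 months minus the mean of the log2 levels at 3 and 24 months. A value above 0 means a level above that mean, and a value below 0 a level under it. It is a peak or a dip only where 12 months also lies beyond both other ages. A change from 3 to 12 months that persists at 24 months gives a deviation as well.

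A miRNA is cut from a hairpin that can yield a mature strand from each arm, named 5p and 3p, and the strand loaded into an Argonaute protein pairs with target mRNAs mainly through its seed, bases 2 to 8. In the kidney, miR-30, miR-10, miR-192 and miR-194 are abundant in tubule cells, miR-21 and the miR-199 and miR-214 group are known from fibroblasts and renal fibrosis, miR-142, miR-146, miR-150 and miR-223 mark blood-derived immune cells, and miR-144, miR-451 and miR-486 mark red blood cells. The 13 tested members of the kidney tubule list summed to 127000 to 162000 CPM (read counts scaled by TMM to a common library size) in each library, with 130000 to 144000 CPM at 12 months. Of the 13, 4 had a 12-month deviation above 0, beside 47.2% of all 665 sequences tested.

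The mature sequences of the miRNAs on which the results turn are from RefSeq (GRCm38.p6), 5′ to 3′, with the seed in capitals. They show which of these miRNAs could address the same targets. Strands with a 12-month mean below both other ages come first, the 2 arms of miR-335, members of the miR-30 family, the arms of miR-144 and 2 further strands.
miR-335-3p: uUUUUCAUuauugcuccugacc
miR-335-5p: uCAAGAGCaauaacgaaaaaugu
miR-30a-5p: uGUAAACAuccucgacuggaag
miR-30e-5p: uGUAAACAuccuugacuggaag
miR-30c-5p: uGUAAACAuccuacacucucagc
miR-30c-2-3p: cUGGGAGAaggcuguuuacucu
miR-144-3p: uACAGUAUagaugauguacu
miR-144-5p: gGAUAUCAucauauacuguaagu
miR-542-3p: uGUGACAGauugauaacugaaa
miR-208a-3p: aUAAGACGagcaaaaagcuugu
The strands with 12-month means above both other ages follow, the miR-199 and miR-214 group and then strands known from epithelial cells, macrophages and immune cells.
miR-199a-5p: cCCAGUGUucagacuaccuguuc
miR-199b-3p: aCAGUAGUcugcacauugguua
miR-214-3p: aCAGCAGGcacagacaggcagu
miR-214-5p: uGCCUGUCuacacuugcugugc
miR-21a-5p: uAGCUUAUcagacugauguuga
miR-146b-5p: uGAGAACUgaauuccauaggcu
miR-511-3p: aAUGUGUAgcaaaagacaggau
miR-574-5p: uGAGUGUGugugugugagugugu
Of the 29 miRNAs looked up, 23 were matched in RefSeq. Both arms of miR-124, miR-375-3p, miR-30d-5p, miR-30b-5p and miR-486a-5p were not matched, so their sequences are not shown although results below concern them. The 5p strands of the miR-30 family share the seed GUAAACA, which 6 tested mouse sequences carry, while each strand of the miR-199 and miR-214 group has a seed of its own. The most abundant form in the files differed from RefSeq at the 3′ end for some strands, with 2 bases more for miR-30a-5p, miR-30e-5p and miR-146b-5p, 1 base more for miR-30c-5p, 1 base fewer for miR-144-3p and miR-199b-3p and 2 bases fewer for miR-335-5p and miR-542-3p.

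Of 665 sequences tested, 3 had a 12-month deviation past an adjusted p of 0.05 (0.451% of those tested), 2 above 0 and 1 below. They were both arms of miR-124, a miRNA known from neurons, and miR-335-3p, from a hairpin within an intron of the imprinted gene Mest. Called means this edgeR quasi-likelihood test with Benjamini-Hochberg adjustment unless another tool is named. DESeq2's Wald test called 18, these 3 and miR-21a-5p, miR-199a-5p, miR-199b-3p, miR-214-3p, miR-214-5p, miR-375-3p, miR-574-5p, miR-511-3p and miR-146b-5p above 0 and miR-335-5p, miR-144-3p, miR-144-5p, miR-208a-3p, miR-3058-5p and miR-190b-5p below. Without adjustment, 70 sequences (10.5%) had p under 0.05, of which 32 (4.81%) were higher and 38 (5.71%) lower at 12 months. In all 70 the 12-month mean lay beyond the means of both other ages. Over all 665 sequences the deviation was above 0 in 47.2%, with a median of -0.009, and the 12-month mean lay above both other means in 187, below both in 213 and between them in 265. With library totals in place of trimmed-mean (TMM) scaling, 59.4% of the deviations were above 0 and the calls were 3 higher and 1 lower, and with RLE size factors they were 4 higher and 1 lower.

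**Figure D1:**
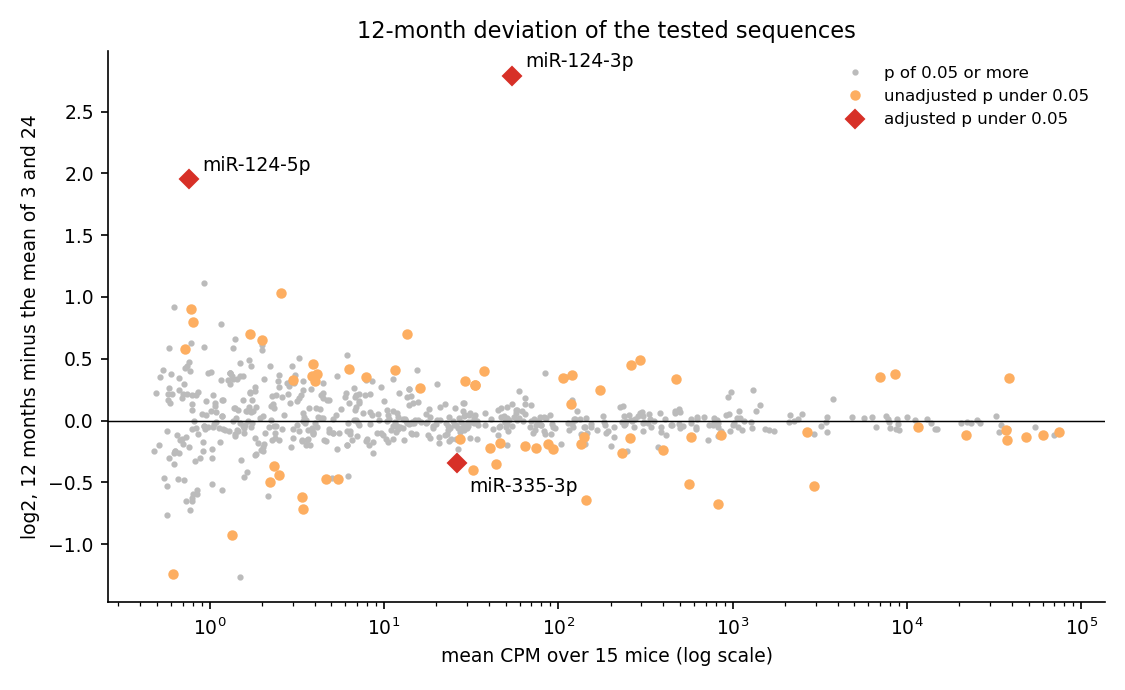
The 12-month deviation (log2, vertical axis) of the 665 tested sequences against their mean level over 15 mice (CPM, log scale), one point per sequence. The 3 called sequences are named, with miR-124-3p at 2.79, miR-335-3p at -0.34 and miR-124-5p at a fitted 1.96 that depends on the prior count, since it was listed at 0 at 3 months (at least 1.2 with a 0 as up to 5 reads), while the 70 sequences with an unadjusted p under 0.05 lie on both sides of 0 at all levels.

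A deviation can come from 1 step only, so a level beyond both other ages was tested directly, from the one-sided p-values of 12 against 3 and 12 against 24 months. By edgeR's quasi-likelihood test no sequence passed after adjustment (0%, smallest adjusted p of 1; DESeq2 and limma were not run for it), and 14 (2.11%) had an unadjusted p under 0.05, 8 above and 6 below both ages. All 14 bear mouse names. The smallest p was that of miR-208a-3p (0.00158), before miR-141-5p (0.00579), miR-190b-5p (0.00689) and miR-30d-5p (0.0085). In no sequence did all 12-month libraries lie above the other 10 (0%), and in 3 they all lay below (0.451%), namely miR-335-3p, miR-208a-3p and miR-30c-2-3p. With library totals as the scale, none of these 3 separations remained.

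Between 3 and 12 months 16 sequences changed (2.41%), and between 12 and 24 months none did (0%), with 59 at an unadjusted p under 0.05 and 0 also called by DESeq2 and by limma. All 3 sequences called for their deviation were among the 16, and 15 of the 16 had a 12-month mean beyond both other ages and an unadjusted p under 0.05 for the deviation. The exception was miR-378a-3p, which lay between the other ages. The deviation contains the difference of 12 from 3 months, so a sequence called for that difference tends to deviate as well. Over all 665 sequences the 12-month mean lay above both other means in 187 and below both in 213. The 2 steps share the 12-month libraries and are given side by side only. The count of 16 ranged from 5 to 23 when 1 mouse was left out, with under 11 calls without mouse 5, 6 or 8 of 3 months, 17, 18 or 19 of 12 months or 33 of 24 months.

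MiR-124-3p had the largest deviation of the 3 called sequences by edgeR, while by DESeq2 that of miR-124-5p was larger (3.6 against 2.8). MiR-124-3p is given by 3 hairpins, and its reads cannot be assigned among them. Those on chromosome 14 (64590657 to 64590741) and chromosome 3 (17795661 to 17795775) lie in exons of long noncoding host genes, Mir124a-1hg and Mir124-2hg. The hairpin on chromosome 2 (180894014 to 180894135) has no host gene. The mice of 3 months had 3.56, 2.81, 2.13, 6.18 and 0.394 CPM. Those of 12 months had 53.4, 123, 63.3, 119 and 123 CPM, and those of 24 months 40.6, 114, 57.0, 36.3 and 72.2 CPM. All mice of 12 and 24 months lay above all mice of 3 months, while the 2 older ages overlapped. Mean levels were 96.4 ± 35 CPM in the 12-month mice, 3.01 ± 2.12 in the younger and 64.0 ± 31.4 in the older mice (SD over 5 mice). The 12-month deviation was 2.79 ± 0.33 (log2 ± SE, adjusted p = 0.00021). The rise from 3 to 12 months was 4.99 ± 0.48 on the log2 scale (adjusted p = 9.87e-06), whereas the difference of 24 from 12 months was -0.59 ± 0.38, with an unadjusted p of 0.135. At 24 months it was still 4.40 ± 0.47 above 3 months (adjusted p = 4.66e-05). Of the 12-month mice, 3 of 5 lay above the means of both other ages.

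MiR-124-5p, the strand from the other arm, was listed at 0 in all 3-month libraries. It passed the filter on low counts only through the 2 older ages, where it is higher, and its call carries that limit. It had 0.679, 1.58, 0.527, 2.49 and 1.44 CPM at 12 months, from 9 to 33 reads per library, and 1.55, 1.16, 1.41, 0.252 and 0.396 CPM at 24 months. The older ages overlapped here as well. With a 0 taken as up to 5 reads per library (0.273 to 0.417 CPM), the 12-month mean was at least 3.72-fold higher than at 3 months and the deviation at least 1.2 on the log2 scale. The fitted deviation was 1.96 with edgeR and 3.6 with DESeq2. Its adjusted p with edgeR was 0.042, and it missed the threshold in 10 of 26 alternatives (adjusted p up to 0.0923). Among these were the fits without mouse 5 or 8 of 3 months, 18 or 20 of 12 months or 32, 33 or 35 of 24 months.

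The miRNAs of the neuron list were mixed. All 14 listed members were tested, and apart from the 2 arms of miR-124 none was called for its deviation. The median deviation of the list was 0, with 7 members above and 7 below. Without sequences on several rows, which removes both arms of miR-124 among others, 5 of 7 members were above 0 with a median of 0.33. MiR-9-5p and miR-9-3p, known from neural progenitors, had deviations of -0.24 ± 0.08 and -0.23 ± 0.07, with unadjusted p of 0.006 and 0.00594, and miR-9-3p fell from 3 to 12 months by 0.36 on the log2 scale (adjusted p = 0.0328). The summed level of the list (CPM) was 1350 to 1480 at 12 months, beside 1390 to 1550 at 3 and 1330 to 1500 at 24 months.

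MiR-335-3p was the sequence called with a deviation below 0. Its hairpin lies on chromosome 6 (30741299 to 30741396, plus strand) in an intron of Mest, a gene expressed from the paternal allele. The values were 31.2, 33.7, 28.7, 33.2 and 35.5 CPM at 3 months, 21.2, 22.7, 22.6, 21.6 and 22.3 CPM at 12 months and 23.6, 24.8, 23.9, 25.4 and 23.3 CPM at 24 months. Every 12-month mouse lay below every other mouse, with a gap to 24 months of 22.7 against 23.3 CPM. In the order of age the means were 32.5 ± 2.59, 22.1 ± 0.675 and 24.2 ± 0.861 CPM (SD over 5 mice). The deviation was -0.34 ± 0.06 (adjusted p = 0.00712). The fall from 3 to 12 months was -0.55 ± 0.07 (adjusted p = 9.59e-05), and 24 exceeded 12 months by 0.13 ± 0.07, with an unadjusted p of 0.0653. The difference of 24 from 3 months was -0.42 ± 0.07 (adjusted p = 0.0026), so the level was still lower at 24 months.

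The 5p strand of the same hairpin, read at a higher level, gave 297, 283, 225, 320 and 293 CPM at 3 months, 192, 196, 200, 202 and 217 CPM at 12 months and 198, 223, 208, 222.04 and 184 CPM at 24 months. The 12-month mice lay below all 3-month mice and overlapped those of 24 months. Its deviation was -0.27 ± 0.07 (adjusted p = 0.102), its fall from 3 to 12 months -0.49 ± 0.08 (adjusted p = 0.00386) and its difference of 24 from 12 months 0.04 ± 0.08. Both strands fell from 3 to 12 months, and the difference between 12 and 24 months passed the test in neither.

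**Figure D2:**
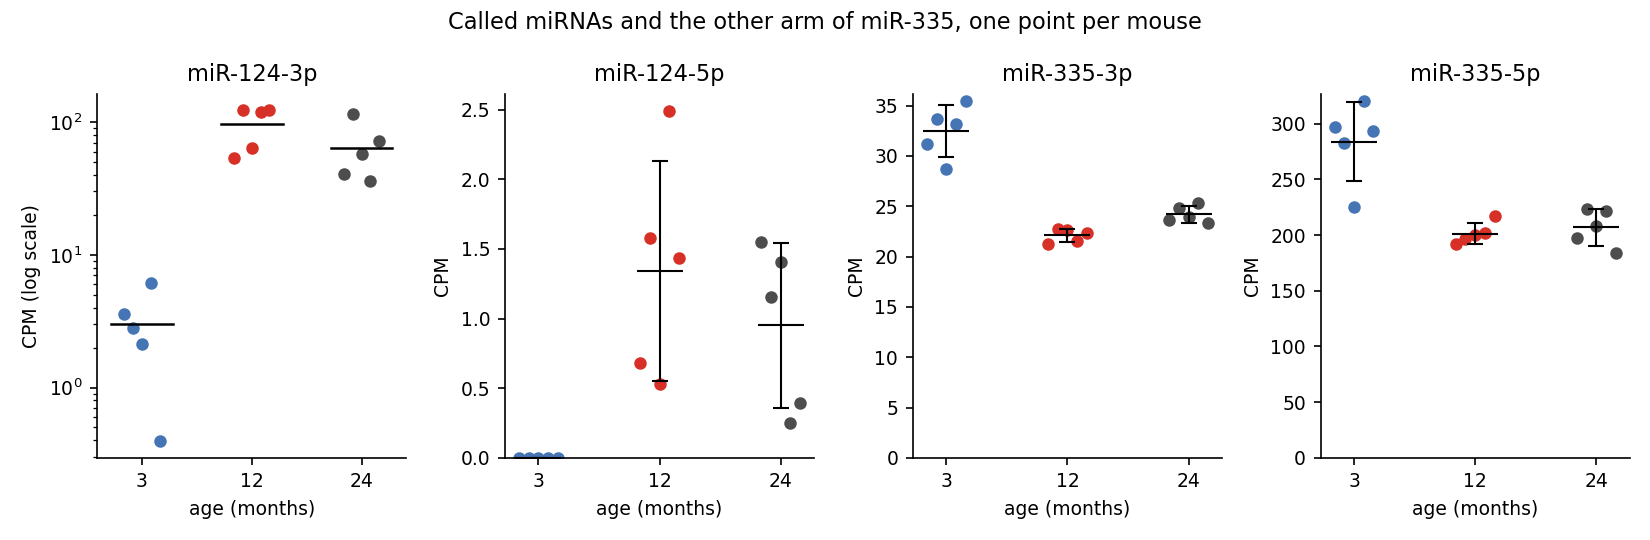
Levels (CPM) of the 3 called miRNAs and of miR-335-5p by age, one point per mouse, with the mean of 5 mice and, on the linear axes, the SD. The axis of miR-124-3p is logarithmic, with all 3-month mice under 6.2 CPM and all others above 36 CPM, and the 12-month points of miR-335-3p, at 21.2 to 22.7 CPM, lie below all others.

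The 4 strands of the miR-199 and miR-214 group had 12-month means above both other ages. The files assign miR-199a-5p and miR-199b-3p each to 3 hairpins, on chromosomes 1, 2 and 9, opposite to introns of the dynamin genes Dnm3, Dnm1 and Dnm2. MiR-214 comes from 1 hairpin on chromosome 1 (162223368 to 162223489), which lies with mir-199a-2 (162217814 to 162217928) in exons of the antisense RNA Dnm3os. This transcript is known from mesenchymal cells. MiR-199a-5p had 5230, 6050, 6700, 5090 and 5900 CPM at 3 months, 7960, 10300, 7960, 7560 and 7310 CPM at 12 months and 7800, 7460, 6860, 6510 and 7140 CPM at 24 months. All 12-month mice lay above those of 3 months and above the mean of 24 months, with an overlap of the 2 older ages. The deviation was 0.35 ± 0.08 (adjusted p = 0.0608), and without mouse 18 of 12 months, the highest, it was 0.27 (adjusted p = 0.117). It rose from 3 to 12 months by 0.50 ± 0.09 (adjusted p = 0.00658), and 24 differed from 12 months by -0.20 ± 0.09, with an unadjusted p of 0.0439.

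MiR-199b-3p, a sequence shared with miR-199a-3p, had 5860, 7540, 8370, 6290 and 8090 CPM at 3 months, 10400, 11500, 11100, 9280 and 8010 CPM at 12 months and 9120, 8330, 7490, 7530 and 9170 CPM at 24 months. Mouse 21 of 12 months lay within the range of the other ages. The deviation was 0.38 ± 0.09 (adjusted p = 0.102). MiR-214-3p had 174, 227, 290, 170 and 239 CPM at 3 months, 314, 429, 322, 270 and 263 CPM at 12 months and 252, 278, 241, 210 and 268 CPM at 24 months, with a deviation of 0.45 ± 0.13 (adjusted p = 0.137). MiR-214-5p, at a mean of 37.5 CPM, had a deviation of 0.40 ± 0.12 (adjusted p = 0.146). None of the 4 strands was called for its deviation, and all 4 were among the 14 sequences with an unadjusted p under 0.05 for a level beyond both. Among the alternatives miR-199a-5p was called in 12 of 27, with RLE factors, library totals, both other filters, DESeq2, limma on the authors' values, calendar age and 5 of the fits without 1 mouse (mouse 6, 7 or 9 of 3 months, 21 of 12 months or 31 of 24 months). MiR-199b-3p was called in 3 of 27 and miR-214-3p in 2 of 28, by DESeq2 and without mouse 7 of 3 months, and for miR-199b-3p also without mouse 21 of 12 months. With the mean level of the erythroid list as a covariate the deviations of miR-199b-3p and miR-214-3p were 0.24 each.

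The mesenchymal and smooth muscle list was not of one kind. Of its 10 members 8 were tested, 4 above 0 and 4 below, with a median of 0.17 against -0.009 over all sequences (-0.02 over 6 members when sequences on several rows, here both miR-199 strands, were left out). The 4 above were the miR-199 and miR-214 strands. The 4 others were the arms of miR-143 and miR-145a, known from vascular smooth muscle, with deviations from -0.08 to 0.00, and miR-143-3p, at a mean of 36900 CPM, had -0.08 ± 0.03 with an unadjusted p of 0.0188.

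MiR-21a-5p, known from fibrosis and from stressed epithelium, had 31336, 32776, 39173, 28794 and 39949 CPM at 3 months, 49402, 55959, 47874, 36263 and 34335 CPM at 12 months and 38862, 37988, 31308, 34516 and 38633 CPM at 24 months. Mice 17, 18 and 19 of 12 months lay above all other mice, and mice 20 and 21 lay among them. The deviation was 0.34 ± 0.11 (unadjusted p = 0.00562, adjusted p = 0.146), called by DESeq2 and without mouse 21 of 12 months. Its other strand, miR-21a-3p, had 0.00 ± 0.17. Of 26 miRNAs listed for kidney ageing and fibrosis, 23 were tested, 15 above 0 and 8 below with a median of 0.03. EdgeR called 1 of them, miR-335-3p, beside 3 of all 665 sequences (0.451%). DESeq2 called 5, with miR-335-5p, miR-21a-5p, miR-199a-5p and miR-214-3p, beside 18 of all 665. Of all sequences 47.2% were above 0. MiR-34a-5p, whose gene is activated by p53, lay between the other ages, with means of 1169, 1513 and 1651 CPM in the order of age and a deviation of 0.12 ± 0.10.

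MiR-375-3p, known from endocrine and epithelial cells, had 81.9, 99.2, 104, 73.7 and 87.8 CPM at 3 months, 136, 136, 126, 111 and 108 CPM at 12 months and 96, 110, 106, 107 and 109 CPM at 24 months. The 12-month mice lay above all of 3 months and, apart from mouse 21, above all of 24 months. The deviation was 0.34 ± 0.08 (adjusted p = 0.0617), with a rise from 3 to 12 months of 0.46 ± 0.09 (adjusted p = 0.0159). The deviation was called in 8 of 28 alternatives, among them RLE factors and DESeq2. MiR-574-5p, from an intron of Fam114a1, had 15.3, 13.8, 14.7, 14.8 and 13.9 CPM at 3 months, 17.9, 20.9, 18.4, 15.2 and 18.3 CPM at 12 months and 16, 17.1, 15.9, 14.2 and 15.4 CPM at 24 months. Its deviation was 0.26 ± 0.07 (adjusted p = 0.116).

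MiR-511-3p, from an intron of the macrophage mannose receptor gene Mrc1, had 6.71, 7.91, 13.0, 7.09 and 13.1 CPM at 3 months, 20.2, 22.1, 20, 15.6 and 12.5 CPM at 12 months and 13.2, 16.9, 11.2, 9.05 and 13.8 CPM at 24 months. Mice 17 to 19 of 12 months lay above all others. The deviation was 0.70 ± 0.18 (adjusted p = 0.102), and it rose from 3 to 12 months by 0.90 ± 0.22 (adjusted p = 0.041). Its deviation was called in 4 of 28 alternatives, by DESeq2 and without mouse 7 or 9 of 3 months or 21 of 12 months, and it was 0.41 with the erythroid covariate. MiR-146b-5p, induced by inflammatory signalling, had 234, 186, 260, 219 and 266 CPM at 3 months, 354, 581, 345, 270 and 266 CPM at 12 months and 295, 300, 259, 262 and 315 CPM at 24 months. Its deviation was 0.49 ± 0.15 (adjusted p = 0.146) and 0.26 without mouse 18 of 12 months, whose 581 CPM stood apart from the rest. With the erythroid covariate it was 0.20, and it was called by DESeq2 alone.

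The leukocyte list held further members above 0. Of 12 listed, 10 were tested, with 9 above 0, 1 below and a median of 0.24. Of the 9, 4 had an unadjusted p under 0.05, and edgeR called none of the 10. Over all 665 sequences 47.2% were above 0, and 4.81% were higher with an unadjusted p under 0.05. DESeq2 called miR-146b-5p (adjusted p = 0.0321), and miR-142a-3p was called without mouse 9 of 3 months. With the erythroid covariate 6 were above and 4 below 0, with a median of 0.16 and 2 unadjusted p under 0.05. That last count was also 1 without mouse 17 of 12 months and 2 without mouse 8 of 3 months or 35 of 24 months. MiR-142a-3p, found in all blood-derived cells, had a deviation of 0.33 ± 0.12, miR-150-5p of lymphocytes 0.24 ± 0.10 and miR-223-3p of granulocytes and monocytes 0.37 ± 0.17 (adjusted p of 0.239 to 0.425). In this order they differed by 0.53, 0.37 and 0.53 between 3 and 12 months and by -0.14, -0.11 and -0.20 between 12 and 24 months. For miR-142a-3p the 12-month mice had 466 to 661 CPM, those of 3 months 301 to 533 and those of 24 months 465 to 546, so the ages overlapped. The summed level of the list was 6000 to 8600 CPM in the 12-month mice, 4180 to 7160 in the younger and 5700 to 7010 in the older mice. The part of these cells in the deviations of other miRNAs was not tested.

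**Figure D3:**
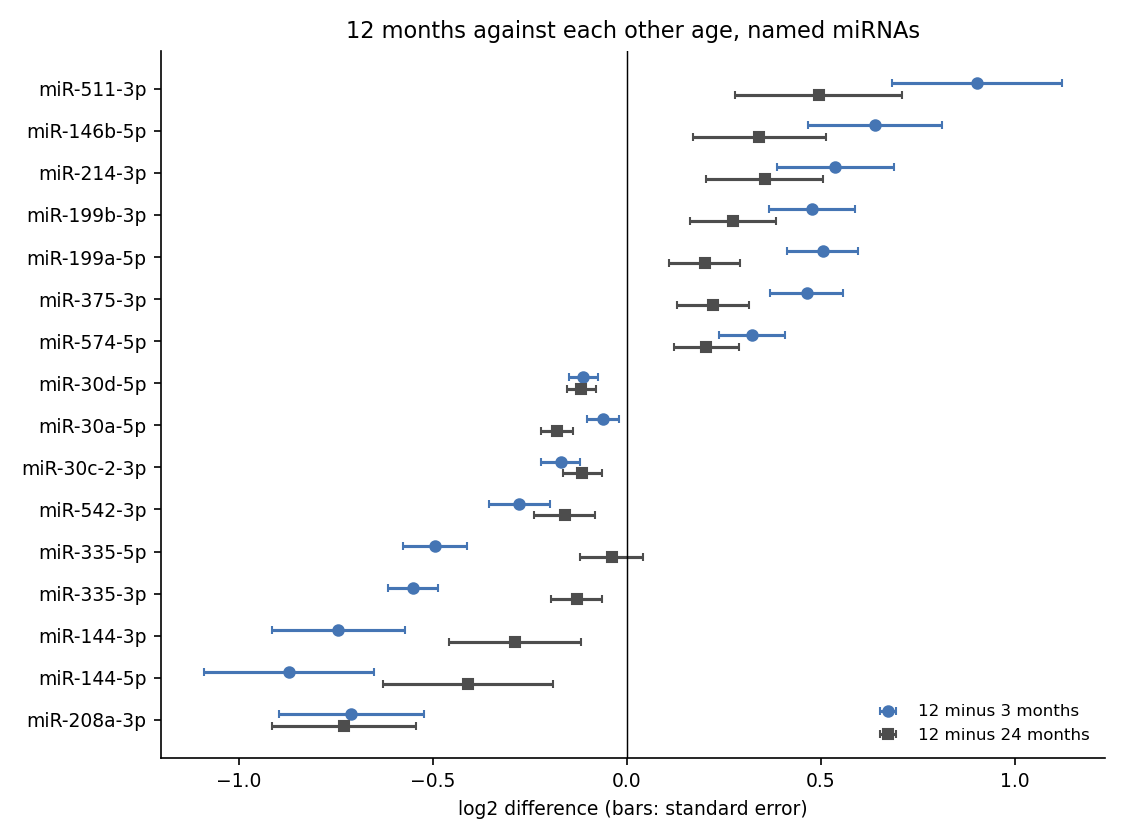
The difference of 12 from 3 months (circles) and of 12 from 24 months (squares) on the log2 scale, with standard errors, for the named miRNAs other than miR-124, fitted on 15 mice. For miR-335-5p the difference from 24 months is near 0 (-0.04) beside -0.49 from 3 months, while for miR-30d-5p and miR-208a-3p both are of like size.

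The miR-30 family is one of the most abundant of the kidney and enriched in its epithelium. All 11 listed members were tested, and the deviation was below 0 in 11, with 9 means below both other ages and 2 between them (miR-30c-1-3p and miR-30b-3p). Of the 11, 6 had an unadjusted p under 0.05 and none was called. Among all 665 sequences 5.71% were lower with such a p, and 47.2% were above 0. The median of the family was -0.10 against -0.009 over all sequences. With library totals as the scale 9 of 11 were below 0 with a median of -0.06, so 2 members lay on the other side of 0 there. The differences were small, from -0.14 ± 0.05 for miR-30e-5p to -0.01 ± 0.07 for miR-30b-3p. The 11 strands together made up 202000 to 226000 CPM in the 12-month mice, 216000 to 237000 in the younger and 220000 to 253000 in the older mice.

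MiR-30a-5p, from chromosome 1 (23272264 to 23272345), had 62400, 57700, 56300, 61700 and 60200 CPM at 3 months, 53300, 56800, 58200, 58300 and 59400 CPM at 12 months and 64300, 60400, 64400, 68600 and 66400 CPM at 24 months. The 12-month mice lay below all of 24 months and overlapped those of 3 months. Its deviation was -0.12 ± 0.04 (adjusted p = 0.146), with -0.06 ± 0.04 from 3 to 12 months and 0.18 ± 0.04 from 12 to 24 months. MiR-30d-5p, from chromosome 15 (68341207 to 68341294) in an exon of the noncoding gene Gm20732, had 22700, 22600, 21300, 23500 and 21700 CPM at 3 months, 19500, 21200, 20100, 21000 and 21600 CPM at 12 months and 22400, 21600, 22900, 23100 and 22300 CPM at 24 months. All 12-month mice lay below the means of both other ages, while mouse 21, at 21600 CPM, lay above mouse 7 of 3 months (21300 CPM) and at the lower end of 24 months. Its deviation was -0.12 ± 0.03 (adjusted p = 0.132), with -0.11 ± 0.04 from 3 to 12 months and 0.12 ± 0.04 from 12 to 24 months. MiR-30c-2-3p, from chromosome 1 (23291688 to 23291805), had 301, 254, 257, 278 and 276 CPM at 3 months, 231, 245, 245, 243 and 249 CPM at 12 months and 262, 261, 275, 260 and 254 CPM at 24 months. Every 12-month mouse lay below every other mouse, and the deviation was -0.14 ± 0.04 (adjusted p = 0.146).

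The family is made from pairs of hairpins on chromosomes 1, 4 and 15, and members of all 3 pairs had deviations below 0. Of the 6 tested sequences with the seed GUAAACA, 5 were below 0 and 4 of them had an unadjusted p under 0.05, and the sequence above 0 was miR-384-5p, at 1.41 CPM or less in every library. Averaged over the 11 strands on the log2 scale (CPM plus 0.5), relative to the mean of 15 mice, the 12-month mice lay between -0.13 and -0.04, those of 3 months between 0.02 and 0.09 and those of 24 months between -0.01 and 0.07. With RLE factors or library totals the ranges of 12 and 24 months overlapped.

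**Figure D4:**
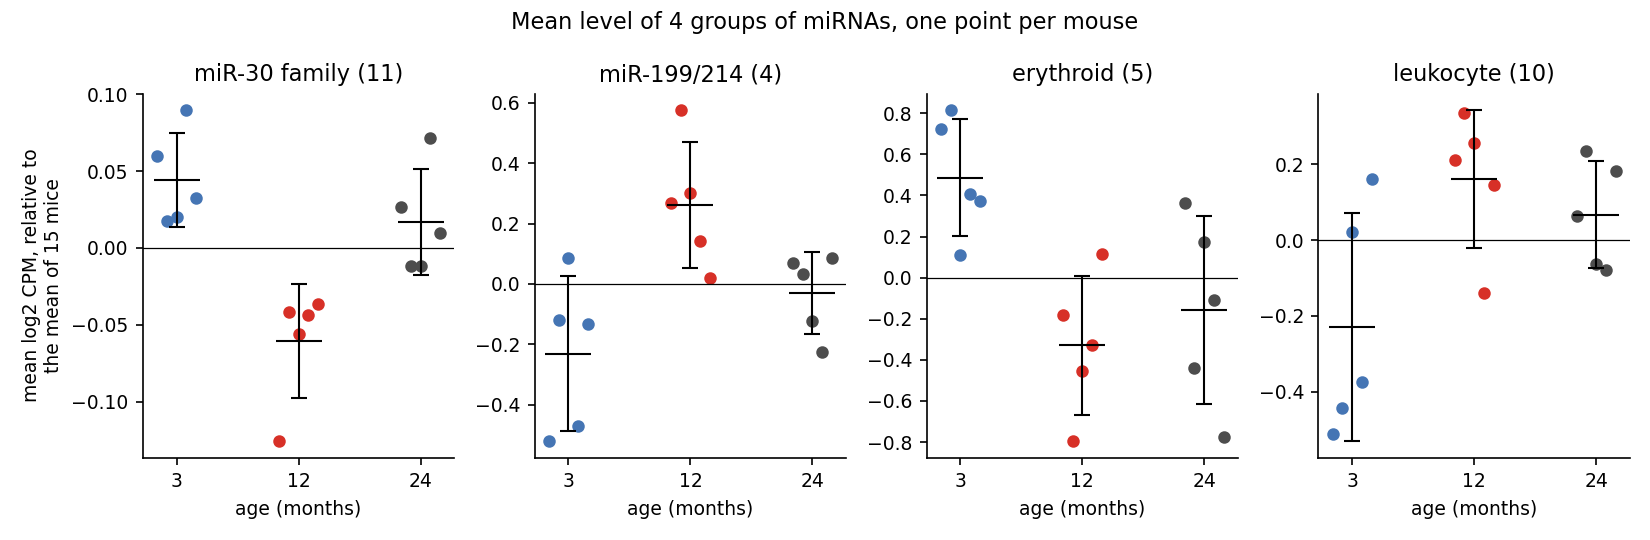
Mean level of 4 groups of miRNAs (log2 CPM relative to the mean of 15 mice, vertical axis, with a scale of its own in each panel) by age, one point per mouse, with the mean and SD of 5 mice. For the miR-30 family the 12-month mice lie from -0.13 to -0.04, below all others with TMM scaling, and for the miR-199 and miR-214, erythroid and leukocyte groups the ages overlap.

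The red blood cell miRNAs had the lowest median of the lists. All 5 tested were lower at 12 than at 3 months, from -1.12 for miR-486a-5p to -0.46 for miR-486b-3p on the log2 scale. This difference was called for 3 of them, miR-144-3p, miR-144-5p and miR-486a-5p. Of 8 listed erythroid members, 5 were tested and 5 were below 0, with a median of -0.53. Of these, 4 had an unadjusted p under 0.05 and none was called by edgeR. Among all 665 sequences 47.2% were above 0, and 5.71% were lower with an unadjusted p under 0.05. DESeq2 called miR-144-3p and miR-144-5p (adjusted p = 0.0321 each). MiR-144-3p, from a hairpin next to that of miR-451a on chromosome 11 (78073001 to 78073080), had 870, 803, 575, 699 and 680 CPM at 3 months, 458, 339, 387, 465 and 517 CPM at 12 months and 737, 370, 609, 525 and 404 CPM at 24 months. The 12-month mice lay below all of 3 months and overlapped 24 months. The deviation was -0.52 ± 0.15 (adjusted p = 0.145), with a fall from 3 to 12 months of -0.74 ± 0.17 (adjusted p = 0.0328). The other strand, miR-144-5p, had 249, 218, 135, 186 and 162 CPM at 3 months, 115, 70.6, 95, 99.1 and 140 CPM at 12 months and 174, 103, 168, 160 and 84.9 CPM at 24 months, with a deviation of -0.64 ± 0.19 (adjusted p = 0.146). MiR-486a-5p, from an intron of the erythrocyte ankyrin gene Ank1, and miR-451a had deviations of -0.68 ± 0.21 and -0.53 ± 0.20 (adjusted p of 0.146 and 0.291). From 3 to 12 months miR-486a-5p fell by -1.12 ± 0.24 (adjusted p = 0.0271) and miR-451a differed by -0.87. The differences of 24 from 12 months were smaller, 0.23 and 0.20.

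The summed level of the erythroid list was 2420 to 4760 CPM in the 12-month mice, 4340 to 7930 in the younger and 2480 to 5000 in the older mice. With the mean log2 level of this list as a covariate, 1 deviation was called, that of miR-124-3p (2.58, adjusted p = 0.00496). That of miR-335-3p was then -0.33 with an adjusted p of 0.0923, and that of miR-199a-5p 0.26 with an adjusted p of 0.598. The deviations of miR-144-3p and miR-144-5p, members of the covariate itself, were then -0.13 each. Fragments of ribosomal RNA, a sign of degradation, summed to 16.3 to 58 CPM in the 12-month mice, 13.7 to 106 in the younger and 9.19 to 40.2 in the older mice. With them as a covariate, miR-124-3p (2.72) and miR-335-3p (-0.34) were called.

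MiR-208a-3p, from an intron of the cardiac myosin gene Myh6 on chromosome 14 (54949060 to 54949142), was the sequence nearest to a level below both ages. It lies under the 10 CPM asked of the other named miRNAs, and was chosen for description after its values were seen. It had 3.88, 3.95, 3.88, 3.00 and 5.05 CPM at 3 months, 2.42, 1.65, 2.22, 2.94 and 2.61 CPM at 12 months and 3.78, 3.47, 5.13, 3.12 and 4.63 CPM at 24 months, from 22 to 40 reads per library at 12 months. Every 12-month mouse lay below every other mouse. The deviation was -0.72 ± 0.17 (adjusted p = 0.0617), with -0.71 ± 0.19 from 3 to 12 months and 0.73 ± 0.19 from 12 to 24 months.

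Of 11 listed miRNAs of striated muscle, 5 were tested and 5 were below 0, with a median of -0.35. Of these, 2 had an unadjusted p under 0.05 and none was called by edgeR. Among all 665 sequences 47.2% were above 0, and 5.71% were lower with an unadjusted p under 0.05. DESeq2 (adjusted p = 0.0167) and limma on the authors' values called miR-208a-3p. The erythroid covariate gave a median of -0.21 and 1 unadjusted p under 0.05, as did leaving out mouse 18, 19, 20 or 21 of 12 months for the latter count. MiR-133a-3p had a deviation of -0.35 ± 0.14, miR-1a-3p -0.19 ± 0.14 and miR-499-5p, a strand of cardiac and slow muscle, -0.09 ± 0.13. The summed level of the list was 156 to 195 CPM in the 12-month mice, 147 to 332 in the younger and 171 to 195 in the older mice, so its spread was widest at 3 months. MiR-542-3p, from a cluster on the X chromosome (53049393 to 53049487), had 45.5, 45.6, 40.6, 47.9 and 40.9 CPM at 3 months, 32.5, 36.5, 37.0, 38.8 and 36.8 CPM at 12 months and 37.5, 35.1, 42.2, 44.4 and 43.7 CPM at 24 months, with a deviation of -0.22 ± 0.07 (adjusted p = 0.146).

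Other groups are given by their counts, to be set beside the 47.2% above 0 and the median of -0.009 over all 665 sequences. With all 15 libraries edgeR called none of their members. MiR-141-5p was called without mouse 6 of 3 months and miR-375-3p in the alternatives given above. The miR-200 family, which holds the epithelial state, had 8 of 9 tested members below 0 and a median of -0.06, and its minor strand miR-141-5p had -0.47 ± 0.13 (unadjusted p = 0.00181) with 2.93 to 4.13 CPM in the 12-month mice, 3.57 to 5.77 in the younger and 4.63 to 5.84 in the older mice. The let-7 family had 8 of 9 below 0 with a median of -0.05, and the cluster of miR-183, miR-96 and miR-182 had 4 of 4 with a median of -0.21. The miR-29 family, which represses collagens, had 7 of 7 above 0 with a median of 0.04, and the p53-linked family of miR-34 and miR-449 had 6 of 6 with a median of 0.12. Of the imprinted Dlk1-Dio3 cluster 22 of 63 listed members were tested, 15 below 0 with a median of -0.11. Its median was -0.05 without mouse 20 and -0.04, with 12 of 22 below 0, without mouse 21 of 12 months, and -0.19 without mouse 19. Of the Sfmbt2 cluster 16 of 38 were tested, 11 above 0 with a median of 0.24. Its direction turned with the erythroid covariate, to 7 above, 9 below and a median of -0.03, and its median was 0.15 without mouse 8 of 3 months. In the miR-200 and let-7 families the counts below 0 were 7 and 6 with library totals as the scale, with medians of -0.02 and -0.01. In the let-7 family the count was 5 without mouse 21 of 12 months, with a median of -0.02. In the family of miR-34 and miR-449 4 of 6 were above 0 with the erythroid covariate or without mouse 6 of 3 months, and its median was 0.07 without mouse 20 of 12 months and 0.18 without mouse 9 of 3 months. Without mouse 21 of 12 months the median was -0.12 for the cluster of miR-183, miR-96 and miR-182 and -0.03 for the miR-200 family, and that of the miR-29 family ranged from 0.03 to 0.10 when 1 mouse was left out. The ribosomal covariate gave -0.14 for the cluster of miR-183. The lists of endothelium, hepatocytes, miR-221 and miR-222, the groups of miR-17, miR-15, miR-181 and miR-23, and the clusters of miR-99 and miR-100 had medians from -0.04 to 0.05. Of 5 listed pancreas miRNAs 2 were tested, both above 0, of which 1 was miR-375-3p.

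**Figure D5:**
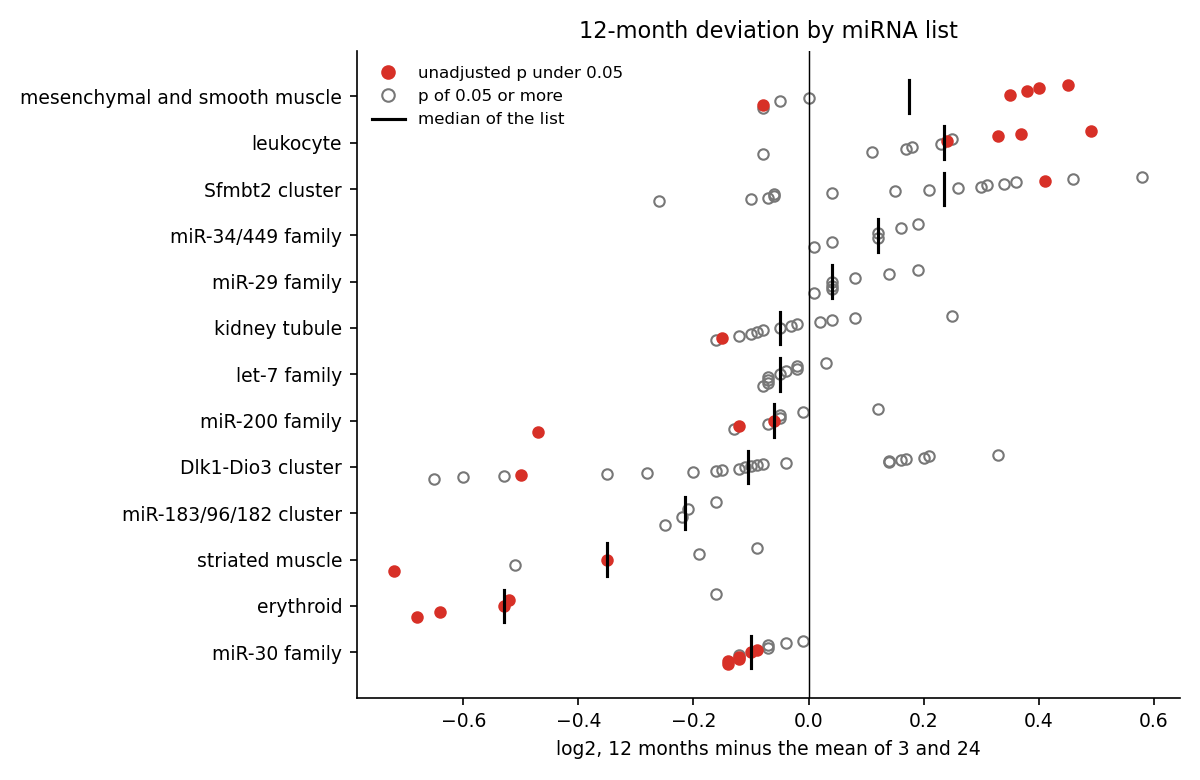
The 12-month deviation (log2, horizontal axis) of the tested members of 13 miRNA lists, one circle per miRNA, filled where the unadjusted p was under 0.05, with the median of each list as a bar. The erythroid members lie from -0.68 to -0.16 and the miR-30 family from -0.14 to -0.01, and 9 of 10 leukocyte members lie above 0.

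The 12-month libraries were compared with the others by 3 measures of the whole library. The total counts of the 12-month libraries (M, mega) were 12.79 to 16.8 M, beside 12.18 to 17.63 M at 3 and 12.17 to 20.73 M at 24 months, and their mean differed by -1.1 M from that of the other 10 mice (two-sided exact permutation test over 3003 arrangements, p = 0.4689). The share of all counts that fell on the top 10 sequences was 48.9 ± 0.588% in the 12-month mice, 49.6 ± 1.18% in the younger and 50.2 ± 0.64% in the older mice (SD over 5 mice), a difference of -1.01 percentage points (exact permutation p = 0.04995, 0.15 adjusted over the 3 library measures, and 0.036 adjusted without mouse 6 of 3 months). The share of the top 50 sequences, taken as an alternative to it and not among the 3 measures, differed by -0.11 percentage points (exact permutation p = 0.1965). The number of sequences detected was 794 ± 26.2 at 12 months, 777 ± 42.7 at 3 months and 805 ± 37.7 at 24 months (exact permutation p = 0.9004).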

How the data were processed

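Kidney RNA came from a Trizol extraction and went into TruSeq small RNA libraries per the labels, and the authors' reads were cleaned of adapter dimers, repeats and common RNA classes with the program ACGT101-miR. The genome build is not given in the sources used here. Of 313 rows with the RefSeq mature sequence on the same chromosome, 313 lay at its GRCm38.p6 start, and positions and GENCODE vM21 hosts are given in that build. The deposited raw values are expected counts, with the reads of a repeated sequence divided among its rows. The deposited normalized signal equals them times 1 constant per library and was used in 1 alternative. The 1318 rows were summed to 1153 sequences and rounded. A listed 0 was taken as up to 5 reads, the most frequent value above 0. Totals were 12.17 to 20.73 M, and counting intervals cover counting error only.

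edgeR 4.0.16 in R 4.3.3 was used (TMM factors 0.959 to 1.037, filterByExpr with minimum count 10 and total 15, quasi-likelihood test, prior count 2, 1 mean per age, Benjamini-Hochberg adjustment over 665 sequences, of which 488 bear mouse names). A level beyond both ages was tested by the larger of 2 one-sided p-values, doubled. Named were all calls, and, among mouse miRNAs with at least 10 CPM, the 8 smallest p in each direction and those with separate 12-month libraries. Members, lists and tests were chosen with earlier results of these data known. Scripts were tested on simulated data. The protocol in the labels counts fewer libraries than the 15 listed. DESeq2 1.42.0 and limma 3.58.1 were alternatives.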

Additional observations from a re-analysis of the deposited data

Results flagged for a closer look

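Each age group of 5 mice was searched for a mouse far from the rest (a gap to the nearest mouse over 0.71 of the whole range) in the named miRNAs and the library measures. Of 65 groups searched 2 had one, and chance gives about 1 in 20. Both concern mouse 18 of 12 months. Its miR-199a-5p level was 10300 CPM, while the other 12-month mice had 7310 to 7960 CPM, and its miR-146b-5p level was 581 CPM, while the others had 266 to 354 CPM. Without it the 12-month deviations were 0.27 in place of 0.35 and 0.26 in place of 0.49.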

How the results depend on the processing

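The 3 calls became 5 with RLE factors, 5 with the 3-month and 24-month means weighted by calendar age, 6 with limma on the authors' normalized values, 18 with DESeq2's Wald test, 1 without sequences on several rows (which removes both arms of miR-124) and 1 with the erythroid covariate. Each of these but the last 2 held all 3 main calls. With at least 10 counts asked in every library there were 3 of 517, of which 1 was a main call, since both arms of miR-124 were then not tested. Leaving out 1 mouse gave 2 to 9 calls, with 7 to 9 without mouse 6, 7 or 9 of 3 months or 21 of 12 months, and miR-124-3p and miR-335-3p were among them each time. The 16 calls of 12 against 3 months ranged from 5 to 23 without 1 mouse and were 23 with RLE factors, 24 with library totals, 28 with upper-quartile factors, 42 with DESeq2 and 3 each without sequences on several rows and with the erythroid covariate, and the 0 calls of 24 against 12 months and of a level beyond both ages stayed at 0 in every alternative run. The 3 separate 12-month dips became 0 with library totals and separations in either direction 3 to 8 without 1 mouse (5 without mouse 6 or 8 of 3 months, 6 and 8 without mouse 20 and 21 of 12 months). Without 1 mouse, the library measures differed by -1.75 to -0.492 M counts, -1.21 to -0.842 percentage points in the share of the top 10 sequences (adjusted p of 0.036 without mouse 6 of 3 months, the sole one under 0.05) and -7.75 to 10.2 detected sequences (below 0 without mouse 5 or 8 of 3 months, 19 of 12 months or 33 of 24 months). The 18 named miRNAs kept their direction in all 498 refits, of which 450 kept their side of the threshold, 37 gained a call and 11 lost one. These miRNAs were chosen by their values in the same data and the refits share most libraries. A kept direction is therefore no independent support. The leave-one-out fits of separations and of pairwise changes, and other scalings of the latter, were chosen after seeing the data. The cause of these shifts was not tested. At the level of miR-208a-3p a deviation rests on 22 to 82 reads per library. No paired analysis was possible because mouse numbers differ between ages.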

Other observations

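The 12-month mice differed among themselves in several miRNAs whose 12-month mean lay above both other ages, chosen here after their values were seen. Mice 20 and 21 were the lowest of the 5 for miR-21a-5p (36263 and 34335 CPM, against 47874 to 55959 CPM in the other 3), miR-511-3p (15.6 and 12.5 CPM against 20 to 22.1 CPM), miR-199b-3p (9280 and 8010 CPM against 10400 to 11500 CPM) and miR-375-3p (111 and 108 CPM against 126 to 136 CPM). For miR-335-3p they had 21.6 and 22.3 CPM, within the 21.2 to 22.7 CPM of the rest, and for miR-124-3p 119 and 123 CPM, while mice 17 and 19 had 53.4 and 63.3 CPM. Without mouse 21, the 12-month mice of 5 of 673 sequences lay above all others, miR-199b-3p, miR-199a-5p, miR-1839-5p, miR-375-3p and miR-214-5p. With all mice this held for 0 of 665 sequences, and without any other single mouse for 0 to 2.

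The same mice had the lowest 12-month sums of the Dlk1-Dio3 cluster, 88.8 CPM in mouse 20 and 85.9 CPM in mouse 21 against 119 to 130 CPM in the other 3, and 1 mouse of 24 months, mouse 32, had a like value of 86.6 CPM. They also had the lowest sums of the clusters of miR-99, miR-100 and miR-125, 48100 and 44200 CPM against 50220 to 55640 CPM.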
